A study of Mus musculus with 36 samples.

Results

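The transcripts of 9 genes of the Nodal, bone morphogenetic protein (BMP) and Id pathways were followed through all libraries: the ligands Nodal and Bmp4, the Nodal inhibitors Lefty1 and Lefty2, the Nodal co-receptor Tdgf1 (Cripto), the intracellular inhibitor Smad7, and the BMP targets Id1, Id2 and Id3. They were chosen by symbol, and each of the 9 was present once in the 3 count tables of 25239, 25229 and 48440 genes. For each gene the level was taken in every cell type, together with its P-body enrichment (P-body against cytoplasm) and its ribosome occupancy (polysome-bound against total RNA). The polysome libraries, named here after their titles, came from pooled ribosome-containing fractions of a sucrose gradient. Whether single ribosomes were left out was not stated. P-bodies, membraneless granules that store untranslated mRNA, were sorted here as particles carrying GFP-LSM14A, a P-body protein expressed from a lentiviral construct. The cytoplasmic fraction was an aliquot of the resuspended lysate pellet taken before sorting, so it still held P-bodies. Enrichment therefore compares relative levels in P-bodies and in this input, and does not give the share of a transcript inside P-bodies. The 36 libraries formed 16 groups. Naïve ES cells (v6.5 line, kept with LIF and inhibitors of MEK and GSK3) and primed ES cells (the same line, kept with activin A, bFGF and serum replacement) each gave 2 P-body and 2 cytoplasmic libraries. So did mouse embryonic fibroblasts (MEFs) carrying doxycycline-inducible OKSM reprogramming factors, rtTA and a Pou5f1-EGFP reporter. Day 3 of reprogramming was sampled in the same kind of MEFs, with doxycycline, LIF and ascorbic acid, either as control or with a Nudt21 shRNA, again with 2 libraries of each fraction. Naïve Ago2 KO ES cells, cloned after CRISPR deletion in Ago2, gave 2 libraries of each fraction. Polysome-bound and total RNA came in 3 libraries each from naïve ES cells of single-cell clones whose Ddx6 alleles both carry an FKBP12 F36V degron tag. The control cells carry the same tag and the GFP-LSM14A construct, and DDX6 protein was removed in the degron cells with dTAG-13. That treatment lasted hours rather than days, and both kinds of cells received cycloheximide before harvest. Activin A, added only to the primed cells, is a ligand that acts through the same receptors as Nodal.

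Nodal is a secreted ligand of the TGF-β family that binds activin receptors together with Tdgf1 and acts through Smad2 and Smad3. Lefty1 and Lefty2 are both targets and secreted antagonists of this signal, so that Nodal and Lefty form a feedback loop in the early embryo. BMP4 acts through other receptors and Smad1 and Smad5 to induce the Id genes, whose products block basic helix-loop-helix transcription factors. In ES cells BMP and Id proteins are known for restraining neural differentiation, and Smad7 interferes with the receptors of both branches.

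The study asked whether microRNAs and Ago2, the protein that carries them, bear on P-body content, so 3′ UTR matches to microRNA seeds are shown. Whether a match goes with P-body enrichment was not tested. MicroRNAs typical of ES cells, from the miR-302 and miR-290 clusters, share 1 seed (bases 2 to 8, in capitals in the mature sequences from RefSeq). Also shown is let-7a, typical of differentiated cells, although the paper found its targets enriched in P-bodies of naïve and primed ES cells but not of MEFs. Matches to miR-300 and miR-381, which the paper also examined, were not sought.
miR-302b-3p: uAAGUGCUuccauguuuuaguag
miR-294-3p: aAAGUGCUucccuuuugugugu
let-7a-5p: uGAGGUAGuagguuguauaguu
The 3′ UTR of Lefty1 and that of Lefty2 each held 1 match to AGCACTT, the complement of the shared seed, in capitals below and read on the plus strand of chromosome 1 in mm10.
Lefty1, chr1:180938203-180938227: ctgtatgcgaAGCACTTacatgtat
Lefty2, chr1:180897907-180897931: acccagtttaAGCACTTacatgggt
The first match began at base 238 of a 3′ UTR of 425 bases and the second at base 104 of 1290. AGCACTT was absent from the 3′ UTRs of the other 7 genes and present in 14.5% of 21033 mouse 3′ UTRs, or in 4.09% and 13.5% of those within 10% of the length of the Lefty1 and Lefty2 3′ UTRs. None of the 9 held the let-7 match CTACCTC, found in 8.88% of all 3′ UTRs. The AU-rich letters TATTTAT, found in 27.4% of all 3′ UTRs, stood 2 times in Bmp4, 2 times in Id2 and 1 time each in Nodal and Smad7. The matches of Bmp4 and Id2, the genes with 2 each, are shown on the transcript (minus) strand. They were picked with the P-body values of these genes known, and a link between matches and those values was not tested.
Bmp4, chr14:46383618-46383642: accttgacctTATTTATgactttac
Bmp4, chr14:46383560-46383584: ttgacaaataTATTTATaactacat
Id2, chr12:25094358-25094382: gtgataccgtTATTTATgagagact
Id2, chr12:25094109-25094133: gctgtgtataTATTTATatataaat
A match describes letters in the sense strand of the annotated 3′ UTR and does not show binding.

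In mm10, Nodal spans chromosome 10 from 61417972 to 61425338, Tdgf1 chromosome 9 from 110939603 to 110946158, and Bmp4 chromosome 14 from 46383520 to 46390669. Lefty1 spans chromosome 1 from 180935022 to 180938400 and Lefty2 lies nearby on the same strand from 180893108 to 180899103. Id1 spans chromosome 2 from 152736251 to 152737410, Id2 chromosome 12 from 25093799 to 25097140 and Id3 chromosome 4 from 136143497 to 136145755. The coding sequences of Lefty1 and Lefty2 were identical at 1017 of 1107 bases (91.9%), with a longest shared run of 140 bases, and how reads shared by several genes were divided was not stated, so the split between the pair is uncertain. The Id genes shared 49.6% to 54.5% of aligned coding bases and no run longer than 19. Exons of Bmp4 overlap those of Gm15217 on the other strand, and the counting was not stated to use strand, so reads of the pair cannot be told apart.

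Assigned reads ran from 6769727 to 31185799 per library of the main fractions, 13308776 to 29362187 of the polysome and total RNA, and 15624342 to 17486206 of the Ago2 KO fractions. Levels are given as CPM, the reads of a gene relative to all assigned reads of its library, after TMM scaling within a table; the 3 tables were scaled separately, so levels set across them are side by side only. Replicates differed beyond sampling noise in all 24 pairs (chi-square per degree of freedom 1.82 to 334). Markers were checked against the labels: 5 pluripotency genes summed to at least 4130 CPM in naïve and 1770 CPM in primed cytoplasm and at most 0.225 CPM in MEF cytoplasm, and 8 fibroblast genes to at least 40200 CPM in MEF cytoplasm and at most 15.6 CPM in ES cytoplasm. Nudt21 mRNA ranged from 4.87 to 5.94 CPM in the knockdown and from 88.9 to 110 CPM in the day 3 control. Ago2 mRNA ranged from 2.54 to 4.83 CPM in the Ago2 KO libraries. The degron acts on protein, so Ddx6 mRNA does not check those labels.

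Nodal, Tdgf1 and Lefty2 were expressed in ES cells and at or near 0 in MEFs, where Lefty1 kept a low level. Nodal in the cytoplasm was highest in primed cells, at 306 and 289 CPM, against 162 and 170 CPM in naïve cells. It held 0 reads in all 4 MEF libraries, 1.94 and 2.83 CPM in day 3 control cytoplasm, and 6.52 and 5.33 CPM with Nudt21 knockdown. Each of these steps was larger than the spread of the pairs. Set against a floor of 3 reads over the 2 MEF cytoplasmic libraries, Nodal was at least 42.1-fold higher at day 3.

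Tdgf1 followed the same order. Its cytoplasmic level was 903 and 912 CPM in primed cells and 807 and 229 CPM in naïve cells, where the 2 libraries differed widely. No Tdgf1 read was counted in MEF or day 3 control cytoplasm and 10 reads in the knockdown cytoplasm, while naïve and primed cells stood at least 9130-fold and 16000-fold above the MEF floor.

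Lefty1 had the widest range among ES cells. It stood at 1673 and 1647 CPM in primed cytoplasm and at 18.4 and 8.99 CPM in naïve cytoplasm. MEF cytoplasm gave 5.85 and 5.42 CPM, day 3 control 3.25 and 2.99 CPM, and the knockdown 2.74 and 1.93 CPM. Lefty2 was 210 and 203 CPM in primed, 45.8 and 18.7 CPM in naïve and under 1 CPM in every MEF and day 3 library, so that the neighbours at the low end of its order overlapped.

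Smad7, induced by and inhibiting both branches, had the narrowest range. Cytoplasmic levels were 73.6 and 84.0 CPM in naïve, 40.1 and 58.1 CPM in primed, 32.8 and 35.4 CPM in MEF, 16.3 and 17.3 CPM in day 3 control and 12.7 and 14.8 CPM in knockdown cells. Neighbouring groups in this order did not overlap.

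In the cytoplasm the BMP branch ran the other way, with its highest levels at day 3, for Bmp4 in control cells only. Bmp4 in the cytoplasm was 14.0 and 13.2 CPM in day 3 control, 7.99 and 6.87 CPM in MEFs, 4.45 and 4.54 CPM in primed cells, 2.04 and 2.69 CPM in naïve cells and 1.71 and 2.30 CPM with Nudt21 knockdown, the last 2 groups overlapping. Id1 was 254 and 280 CPM in the knockdown, 205 and 215 CPM in day 3 control, 10.7 and 10.2 CPM in MEFs, 7.16 and 5.70 CPM in primed cells and 0.785 and 0.845 CPM in naïve cells. No neighbours overlapped for Id1.

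Id2 separated the day 3 cells from all others. Its cytoplasmic level was 137 CPM in both day 3 control libraries and 115 and 122 CPM with the knockdown. MEF (5.63 and 7.10 CPM), primed (8.03 and 4.01 CPM) and naïve (2.90 and 4.53 CPM) neighbours overlapped. Id3 was 391 and 418 CPM in day 3 control, 275 and 277 CPM in the knockdown and 116 and 108 CPM in MEFs. Naïve (10.04 and 30.2 CPM) and primed cells (15.3 and 15.9 CPM) overlapped for Id3.

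**Figure D1:**
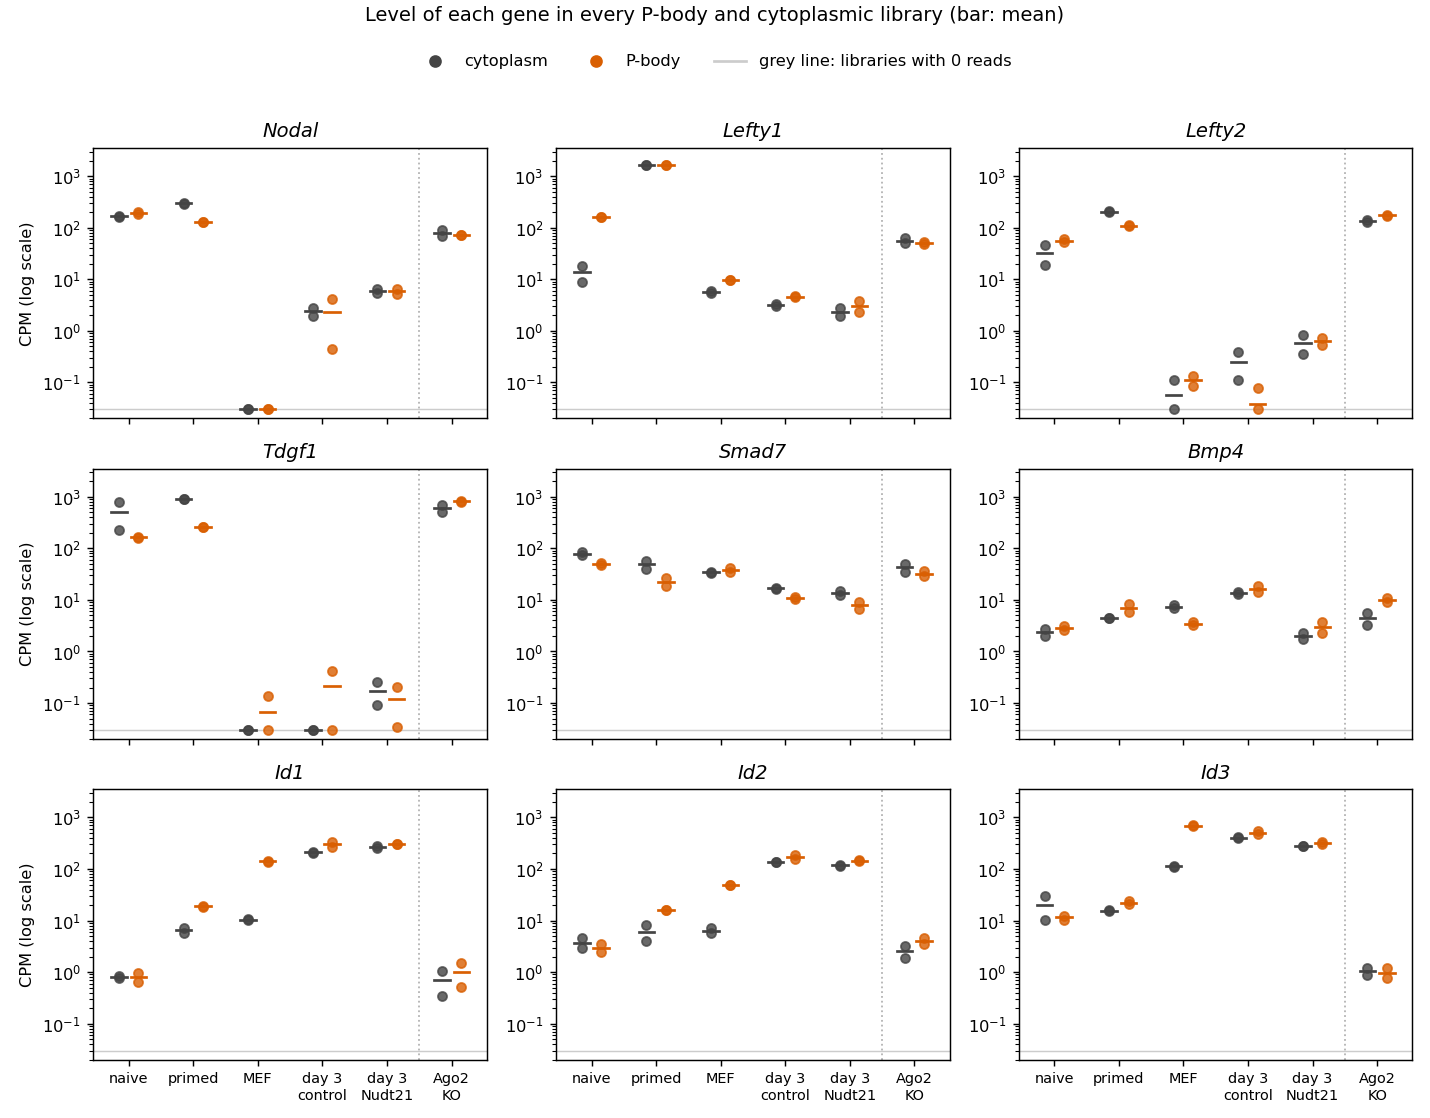
Level of each of the 9 genes (CPM, log axis) in every cytoplasmic (dark) and P-body (orange) library by cell type, with a bar at the mean of the 2 libraries and libraries without reads placed on the grey line; Ago2 KO, right of the dotted line, was scaled in a table of its own. In the cytoplasm Nodal, Tdgf1, Lefty1 and Lefty2 are highest in ES cells and the Id genes at day 3. The P-body and cytoplasm points of Id1, Id2 and Id3 stand far apart in MEFs, whose P-bodies hold the highest Id3 points.

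Per kilobase of the longest annotated transcript, the order of cytoplasmic levels in primed cells was Lefty1 (1025 CPM per kb), Tdgf1 (469.6), Nodal (142) and Lefty2 (83.3), all above Id3 at 12.2. In day 3 control cells it was Id3 (316.5 CPM per kb), Id1 (181), Id2 (69.5) and Bmp4 (6.59), with Nodal at 1.14.

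Genes with the most similar level over the 20 libraries were found by Pearson correlation of log2(CPM + 1) among 10261 genes with a mean of at least 10 CPM; these libraries share cell types and fractions, so the values are descriptive. Tdgf1 was closest to Foxh1 (r = 0.998), the transcription factor through which Nodal signals reach many targets, and to Mov10l1 (0.996) and Large2 (0.994). Lefty1 was closest to Lin28a (0.989), an RNA-binding inhibitor of let-7 maturation, and to Dnmt3l (0.968) and 4930433N12Rik (0.966). Id1 and Id2 were among each other's 3 closest genes (0.977), next to Nmi (0.979) for Id1 and Mob2 (0.971 and 0.962) for both, with B630019K06Rik (0.959) for Id2. For Nodal they were Lbr (0.986), Lsr (0.985) and Pold1 (0.983), for Lefty2 Ina (0.994), Kcnk1 (0.992) and Grb7 (0.991), for Smad7 Rps6ka2 (0.948), Por (0.946) and Scarb1 (0.945), and for Id3 Gm3435 (0.982), Hmgn3 (0.977) and S100a10 (0.974). Bmp4 did not reach the mean of 10 CPM.

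To compare the pluripotent states, primed cytoplasm was set against naïve cytoplasm. Higher levels in primed cells were called for Lefty1, Lefty2, Nodal and Id1, and a lower level for Smad7, 5 of the 9 genes against 43.8% of the 16125 genes tested (21.6% higher and 22.1% lower). Lefty1 rose by the most, with a log2 fold change of 6.94 ± 0.36 (SE; edgeR adjusted p = 2.0e-04). Lefty2 rose by 2.69 ± 0.39 (0.00371), Id1, which had 21 naïve reads, by 2.97 ± 0.38 (0.00230) and Nodal by 0.85 ± 0.11 (0.00242) on the same scale, and Smad7 fell by 0.67 ± 0.20 (0.0387). Values for Tdgf1 (0.82 ± 0.52), Bmp4 (0.94 ± 0.34), Id2 (0.70 ± 0.45) and Id3 (−0.35 ± 0.49) did not pass the threshold. The values of Tdgf1, Id2 and Id3 depended most on single cytoplasmic libraries. Without naïve replicate 1 or replicate 2, Tdgf1 was 2.0 or 0.20, Id3 −0.93 or 0.67 and Bmp4 0.75 or 1.17. Id2 was 1.06 without naïve replicate 2 and moved most with the primed cytoplasm, at 0.12 without primed replicate 1 and 1.14 without primed replicate 2. Bmp4 was called with all groups in 1 fit (0.92, edgeR adjusted p = 0.02998). The Smad7 call was lost without primed cytoplasm replicate 1 (log2 fold change −0.43) or replicate 2 (−0.94), and that of Nodal without replicate 1 (0.81, adjusted p = 0.0527).

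In naïve ES cells Lefty1 was the only one of the 9 called enriched in P-bodies. Its level was 162 and 165 CPM in P-bodies and 18.4 and 8.99 CPM in the cytoplasm, so that both P-body libraries stood far above both cytoplasmic ones. The log2 fold change was 3.58 ± 0.33 (SE; edgeR adjusted p = 0.00111), a 12-fold enrichment, and 98.9% of the 15630 genes tested had a lower one. No alternative setting or left-out library ended this call.

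Lefty2, its neighbour and close homolog, was 59.8 and 52.6 CPM in naïve P-bodies and 45.8 and 18.7 CPM in the cytoplasm (log2 fold change 0.80 ± 0.40, edgeR adjusted p = 0.174). Nodal was 202 and 188 CPM in P-bodies and 162 and 170 CPM in the cytoplasm (0.23 ± 0.099, 0.125). Neither passed the threshold, although their fractions did not overlap. Lefty2 was called with all groups in 1 fit (edgeR adjusted p = 0.0379). Without naïve cytoplasm replicate 1 or replicate 2 its value was 1.58 or 0.30, and that of Nodal 0.19 or 0.28.

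Smad7 was depleted from naïve P-bodies, at 48.4 and 52.3 CPM against 73.6 and 84.0 CPM (−0.64 ± 0.12, edgeR adjusted p = 0.0126). This call was lost without P-body replicate 1 (−0.59) or replicate 2 (−0.70). Tdgf1 was 166 and 160 CPM in P-bodies against 807 and 229 CPM (−1.67 ± 0.56, 0.0669), the largest depletion by value but not called, and it was −0.49 without naïve cytoplasm replicate 1 and −2.29 without replicate 2, called in both cases, as it was with all groups in 1 fit (0.00188). In all, 1 of the 8 genes with a value was enriched and 1 depleted, against 22.6% and 15.4% of all genes tested (38.0% in either direction). Bmp4 (0.27 ± 0.35), Id2 (−0.31 ± 0.39) and Id3 (−0.81 ± 0.51) were not called, the last at 10.04 and 30.2 CPM in the 2 cytoplasmic libraries. Id3 was called with all groups in 1 fit (−0.82, edgeR adjusted p = 0.0405), and was −1.40 without naïve cytoplasm replicate 1 and 0.20 without replicate 2. Id1 had 37 reads over the 4 libraries, listed at 0.63 to 0.954 CPM, and too few for a value.

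In primed ES cells Nodal, Lefty2, Tdgf1 and Smad7 were depleted from P-bodies, Bmp4, Id1, Id2 and Id3 were enriched, and Lefty1 had a similar level in both fractions. Of the 9 genes 4 were enriched and 4 depleted, against 26.5% and 24.2% of the 16177 genes tested.

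Tdgf1 stood at 256 and 259 CPM in primed P-bodies and 903 and 912 CPM in the cytoplasm (log2 fold change −1.84 ± 0.045, edgeR adjusted p = 3.5e-11). Nodal stood at 128 and 129 CPM against 306 and 289 CPM (−1.24 ± 0.058, 5.0e-09). Lefty2 stood at 111 and 107 CPM against 210 and 203 CPM (−0.94 ± 0.062, 9.0e-08). For each of these genes both P-body libraries lay well below both cytoplasmic ones and the pairs agreed closely.

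Smad7 was also lower in primed P-bodies, at 18.6 and 26.8 CPM against 40.1 and 58.1 CPM (−1.14 ± 0.18, edgeR adjusted p = 1.7e-04). Lefty1, the highest of the 9 per kilobase in primed cytoplasm, was 1630 and 1673 CPM in P-bodies and 1673 and 1647 CPM in the cytoplasm (−0.03 ± 0.036, 0.554).

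Id1 was 18.1 and 19.5 CPM in primed P-bodies and 7.16 and 5.70 CPM in the cytoplasm (1.53 ± 0.16, edgeR adjusted p = 6.6e-06). Id2 was 16.03 and 16.1 CPM against 8.03 and 4.01 CPM (1.42 ± 0.23, 2.2e-04). Id3 was 23.5 and 21.01 CPM against 15.3 and 15.9 CPM (0.49 ± 0.13, 0.00673), and Bmp4 8.46 and 5.77 CPM against 4.45 and 4.54 CPM (0.64 ± 0.24, 0.0431). The last 2 are the weaker calls. Bmp4 was lost with DESeq2 (adjusted p = 0.178), with all groups in 1 fit (0.120), with the replicate block (0.0531), and without P-body replicate 1 (log2 fold change 0.34), cytoplasm replicate 1 (0.62) or cytoplasm replicate 2 (0.65), and Id3 with all groups in 1 fit (0.235) or without P-body replicate 1 (0.41).

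The change in enrichment from naïve to primed cells was tested itself, as an interaction over the 8 libraries, and was called for 5 of 9 genes against 25.3% of the 17199 genes tested. Enrichment was lower in primed cells for Lefty1 (difference of log2 fold changes −3.47 ± 0.31, edgeR adjusted p = 2.4e-04), Lefty2 (−1.60 ± 0.42, 0.0241) and Nodal (−1.33 ± 0.11, 2.3e-04), and higher for Id2 (1.86 ± 0.51, 0.0276) and Id1 (1.72 ± 0.44, 0.0207). Tdgf1 (−0.04 ± 0.60), Smad7 (−0.35 ± 0.29), Bmp4 (0.50 ± 0.42) and Id3 (1.44 ± 0.58) were not called. The calls of Lefty1 and Nodal outlasted every left-out library, whereas those of Lefty2, Id1 and Id2 were lost in 6, 4 and 5 of the 8 (values −2.38 to −1.09, 1.45 to 2.01 and 1.42 to 2.32). Id1 rests on the 37 naïve reads. The cytoplasmic libraries here also entered the comparison of cytoplasmic levels, so these results share samples.

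**Figure D2:**
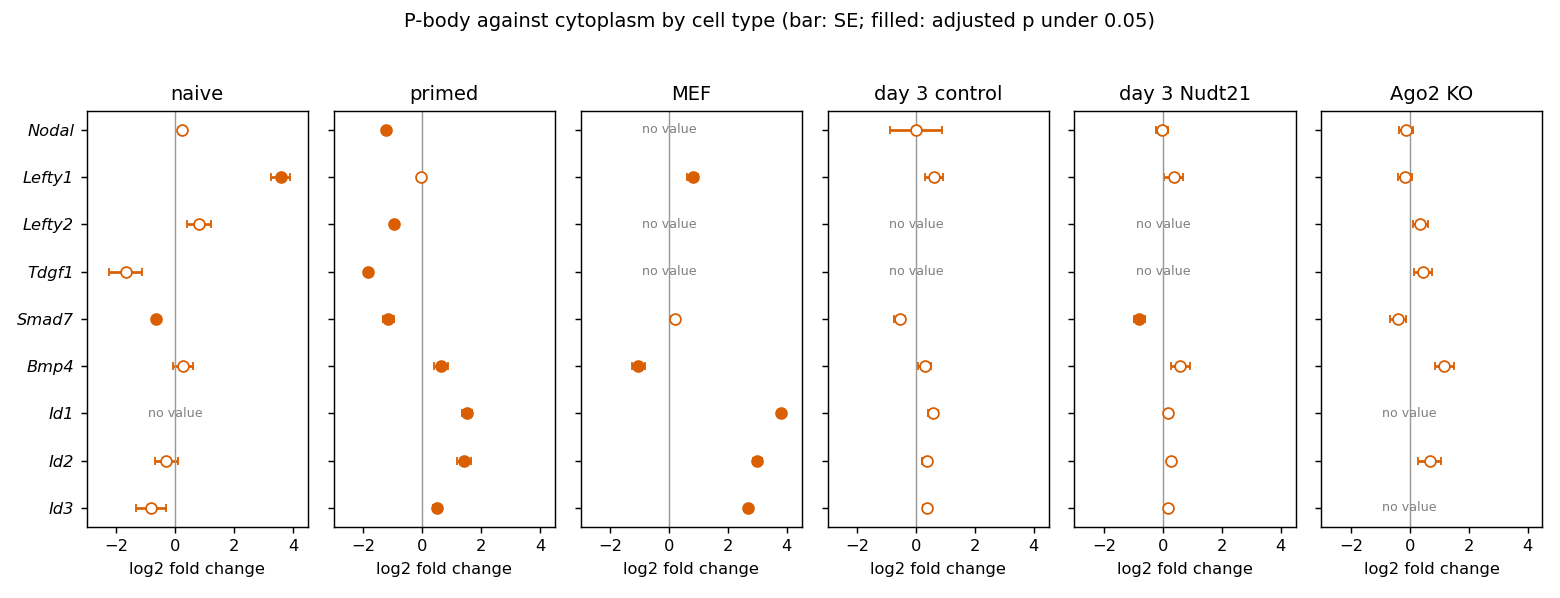
P-body enrichment of the 9 genes (log2 fold change of P-body against cytoplasm, with its SE) in the 6 cell types, filled where the adjusted p was under 0.05; no value is drawn where a fit held under 100 reads of the gene or a group held none. Lefty1 is far right in naïve cells at 3.58, Nodal, Lefty2, Tdgf1 and Smad7 lie left of 0 in primed cells, and the 3 Id genes lie between 2.68 and 3.81 in MEFs.

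In MEFs the Id transcripts were strongly P-body-enriched. Id1 was 144 and 140 CPM in P-bodies and 10.7 and 10.2 CPM in the cytoplasm (log2 fold change 3.81 ± 0.11, 14.0-fold, edgeR adjusted p = 5.1e-07). Id2 was 49.2 and 49.5 CPM against 5.63 and 7.10 CPM (3.0 ± 0.15, 2.2e-06). Id3 was 669.9 and 720.5 CPM against 116 and 108 CPM (2.68 ± 0.095, 7.7e-07). Every P-body library stood above every cytoplasmic one by a wide margin, and between 97.3% and 98.8% of the 16198 genes tested had a lower enrichment.

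Bmp4 went the other way in MEFs, at 3.22 and 3.72 CPM in P-bodies and 7.99 and 6.87 CPM in the cytoplasm (−1.05 ± 0.22, edgeR adjusted p = 0.00292). Lefty1 was 9.51 and 9.55 CPM against 5.85 and 5.42 CPM (0.80 ± 0.18, 0.00450), and Smad7 did not differ beyond its spread (40.9 and 35.0 CPM against 32.8 and 35.4 CPM, 0.20 ± 0.12, 0.185). Of the 6 genes with a value 4 were enriched and 1 depleted, against 26.6% and 28.7% of all genes tested. The Bmp4 call was lost without cytoplasm replicate 1 (−0.93), and the Lefty1 call without cytoplasm replicate 1 (0.87) or replicate 2 (0.77). Lefty2 with 8 reads, Tdgf1 with 3 and Nodal with 0 had no value.

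Other transcripts moved with the MEF P-body libraries. The 3 nuclear RNAs examined summed to 5240 to 7250 CPM in MEF P-bodies and 1100 to 1160 CPM in the cytoplasm, and 4 of 4 lung epithelial markers were present in the P-body libraries (sums of 6.57 and 96.0 CPM) and at 0 in the cytoplasm. Their part in the Id result was not tested. In naïve cells the nuclear RNAs were also higher in P-bodies (571 to 602 CPM against 178 to 251 CPM), beside the Lefty1 result, while in primed cells they were lower (451 to 494 CPM against 614 to 803 CPM).

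At day 3 of reprogramming the Id genes had risen in the cytoplasm. Against MEF cytoplasm, Id2 had a log2 fold change of 4.49 ± 0.10 (SE; edgeR adjusted p = 4.0e-15), Id1 4.39 ± 0.081 (3.9e-16), Id3 1.91 ± 0.064 (3.7e-13) and Bmp4 0.93 ± 0.14 (3.0e-05). Smad7 fell by 0.96 ± 0.11 (6.7e-07) and Lefty1 by 0.80 ± 0.21 (0.00275). All 6 genes with a value were called, where 69.3% of the 16108 genes tested were (35.5% higher and 33.7% lower). In bulk RNA a smaller share of cells with a transcript and less of it per cell cannot be told apart.

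P-body enrichment of these genes in day 3 control cells was small. Id1 was 265 and 341 CPM in P-bodies and 205 and 215 CPM in the cytoplasm (0.58 ± 0.17, edgeR adjusted p = 0.124). Id2 was 156 and 184 CPM against 137 CPM in both (0.36 ± 0.15, 0.198), and Id3 475 and 542 CPM against 391 and 418 CPM (0.38 ± 0.13, 0.162). The P-body libraries lay above the cytoplasmic ones for all 3 genes.

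By edgeR 0 of the 7 genes with a value were called, against 0.646% of the 15786 genes tested; 4 had an unadjusted p under 0.05, and DESeq2 called 1, Id1. Smad7 was 10.6 and 11.6 CPM against 16.3 and 17.3 CPM (−0.55 ± 0.19), Lefty1 4.73 and 4.53 CPM against 3.25 and 2.99 CPM (0.62 ± 0.30) and Bmp4 14.2 and 18.2 CPM against 14.0 and 13.2 CPM (0.30 ± 0.22). Nodal had 109 reads in P-body replicate 1 and 9 in replicate 2, against 52 and 74 in the cytoplasm (−0.01 ± 0.88), and all 11 Tdgf1 reads lay in P-body replicate 1. Without that library 6 of the 7 genes were called and the Nodal value was −2.31; the lone library left was then assumed to vary like the cytoplasmic pair. Lefty2 had 15 reads and no value.

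The fall in Id enrichment between MEFs and day 3 passed a test of the difference itself. Relative to MEFs, enrichment at day 3 was lower by −3.19 ± 0.22 on the log2 scale for Id1 (edgeR adjusted p = 1.3e-04), −2.59 ± 0.22 for Id2 (2.5e-04) and −2.26 ± 0.18 for Id3 (2.1e-04), and higher by 1.4 ± 0.33 for Bmp4 (0.0192). These were 4 of 6 genes with a value, against 14.7% of 17488 genes tested (9.59% higher and 5.13% lower). The Id calls outlasted each left-out library. Mean P-body levels were 141.9 CPM in MEFs and 302.8 CPM in day 3 control cells for Id1, and 49.34 and 169.9 CPM for Id2. For Id3 they were 695.2 and 508.3 CPM. These P-body levels were not tested against each other. The MEF and day 3 control libraries also entered the comparisons above, so these results share samples. The Bmp4 call was lost in 5 of 8 cases: without MEF P-body replicate 1 (1.28), MEF cytoplasm replicate 1 (1.28) or replicate 2 (1.51), or day 3 control cytoplasm replicate 1 (1.39) or replicate 2 (1.30). Smad7 (−0.70 ± 0.22, adjusted p = 0.0585) and Lefty1 (−0.14 ± 0.34) were not called. The nuclear RNAs noted above fell in P-bodies from 5240 to 7250 CPM in MEFs to 1530 to 1770 CPM at day 3; their part was not tested.

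Nudt21 encodes a cleavage and polyadenylation factor whose loss favours proximal sites. Knockdown changed cytoplasmic Bmp4 most, from 14.0 and 13.2 CPM to 1.71 and 2.30 CPM (log2 fold change −2.78 ± 0.20, edgeR adjusted p = 4.3e-09). Nodal rose by 1.32 ± 0.24 (2.1e-04) and Id1 by 0.35 ± 0.07 (4.4e-04), while Id3 fell by 0.55 ± 0.061 (1.0e-06) and Id2 by 0.21 ± 0.07 (0.0217). These 5 of 7 genes compare with 49.6% of the 15990 genes tested (24.6% higher and 25.0% lower). With all groups in 1 fit the Id3 and Id2 calls were lost (adjusted p = 0.104 and 0.421), and the Id2 call also without control cytoplasm replicate 1 (−0.21) or replicate 2 (−0.20) or knockdown cytoplasm replicate 1 (−0.14). Smad7 (−0.29 ± 0.13) and Lefty1 (−0.40 ± 0.28) were not called, and Tdgf1 with 10 reads and Lefty2 with 42 had no value.

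In knockdown P-bodies Smad7 was depleted, at 6.61 and 9.28 CPM against 12.7 and 14.8 CPM (−0.80 ± 0.19, edgeR adjusted p = 0.0156), 1 of 7 genes with a value against 21.9% of 15995 tested (9.04% higher and 12.8% lower). The call was lost without cytoplasm replicate 2 (−0.67). Id2 was 151 and 141 CPM in P-bodies against 115 and 122 CPM (0.29 ± 0.095, 0.0538), which was called with DESeq2 (0.0402), filterByExpr (0.0496), no filter (0.0287) and the replicate block (0.0457). Id1 (0.19 ± 0.093), Id3 (0.19 ± 0.09), Bmp4 (0.59 ± 0.33), Lefty1 (0.37 ± 0.32) and Nodal (−0.03 ± 0.21) were not called. The change in enrichment between knockdown and control was called for 0 of 7 genes by edgeR and by DESeq2, with 0 unadjusted p-values under 0.05 and differences of −0.37 to 0.32, while 0.0118% of 16973 genes were called.

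In Ago2 KO ES cells the Lefty1 enrichment seen in naïve cells was not found. Lefty1 was 51.8 and 49.0 CPM in Ago2 KO P-bodies and 62.2 and 49.7 CPM in the cytoplasm (log2 fold change −0.15 ± 0.24, edgeR adjusted p = 0.756), beside 3.58 ± 0.33 in the naïve cells. The difference was not tested, because the tables were made with different counting tools and annotations and scaled separately. The Ago2 KO libraries were processed apart from the naïve ones, so genotype and processing cannot be told apart. Lefty2 was 167 and 179 CPM against 138 and 132 CPM (0.36 ± 0.26, 0.432). Tdgf1 was 845 and 801 CPM against 703 and 513 CPM (0.44 ± 0.31, 0.423), beside −1.67 ± 0.56 in naïve cells. That naïve value was not called, and was −0.49 or −2.29 without naïve cytoplasm replicate 1 or replicate 2.

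Bmp4 was 11.04 and 8.96 CPM in Ago2 KO P-bodies against 5.55 and 3.31 CPM (1.17 ± 0.33, edgeR adjusted p = 0.0696), the highest value of the 7. Nodal (−0.14 ± 0.24), Smad7 (−0.41 ± 0.27) and Id2 (0.67 ± 0.40) were not called either. In all 0 of 7 genes passed with edgeR or DESeq2, with 1 unadjusted p under 0.05, where 6.51% of 16808 genes were called (5.47% higher and 1.05% lower). Id1 (55 reads) and Id3 (66 reads) had no value. Replicates of the Ago2 KO cytoplasm were uneven in nuclear RNAs (172 and 454 CPM, against 603 and 635 CPM in P-bodies), whose part was not tested.

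Ribosome occupancy was measured in naïve ES cells, where Tdgf1 lay above and Nodal and Lefty1 below their level in total RNA. In control cells Tdgf1 was 264, 260 and 269.6 CPM in polysomes and 231, 226.5 and 221 CPM in total RNA (log2 fold change 0.22 ± 0.059, SE; edgeR adjusted p = 0.00568). Lefty1 was 17.8, 15.2 and 17.4 CPM against 21.4, 19.7 and 28.8 CPM (−0.48 ± 0.13, 0.00535). Nodal was 80.8, 76.5 and 75.8 CPM against 86.4, 83.0 and 96.9 CPM (−0.20 ± 0.071, 0.0353).

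Polysome and total libraries did not overlap for these 3 genes, nor did those of Id2. Id2 was 2.36, 2.98 and 2.90 CPM in polysomes against 1.77, 1.69 and 1.86 CPM (0.63 ± 0.20, edgeR adjusted p = 0.0166). Thus 2 genes were higher and 2 lower of 7 with a value, against 18.8% and 24.1% of 15411 tested (42.9% in either direction). The Nodal call was lost without polysome replicate 1 (−0.23), 2 (−0.18) or 3 (−0.19) or total replicate 3 (−0.13), and the Id2 call without polysome replicate 2 (0.56) or total replicate 2 (0.60). Lefty2 (−0.23 ± 0.10, 0.0874), Smad7 (−0.15 ± 0.077) and Id3 (0.25 ± 0.22) were not called, and Bmp4 with 58 reads and Id1 with 96 had no value.

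After DDX6 loss the same directions held for the Nodal genes. Lefty1 was 11.3, 8.80 and 9.001 CPM in polysomes against 16.1, 16.4 and 15.9 CPM in total RNA (−0.73 ± 0.095, edgeR adjusted p = 8.0e-07). Called values were also found for Nodal (−0.27 ± 0.051, 1.0e-04), Lefty2 (−0.25 ± 0.073, 0.00707), Smad7 (−0.18 ± 0.052, 0.00548) and Tdgf1 (0.21 ± 0.042, 2.0e-04). Of 8 genes 1 was higher and 4 lower, against 24.0% and 26.8% of 15638. Id2 (0.50 ± 0.23), Id1 (−0.07 ± 0.28) and Id3 (−0.05 ± 0.17) were not called, and Bmp4 with 83 reads had no value.

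The change in occupancy with DDX6 loss was called for 0 of 9 genes by edgeR and by DESeq2, with 0 unadjusted p-values under 0.05, as for 0.0% of 16345 genes tested by edgeR. The values lay between −0.31 ± 0.28 for Id3 and 0.65 ± 0.71 for Bmp4, with −0.26 ± 0.17 for Lefty1, −0.08 ± 0.086 for Nodal and −0.01 ± 0.065 for Tdgf1.

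Total RNA of both Lefty genes fell with DDX6 loss. Lefty2 was 18.3, 17.04 and 18.7 CPM in degron cells against 28.8, 25.3 and 26.3 CPM in control (log2 fold change −0.58 ± 0.077, edgeR adjusted p = 0.00397). Lefty1 was 16.1, 16.4 and 15.9 CPM against 21.4, 19.7 and 28.8 CPM (−0.53 ± 0.12, 0.0338). The groups did not overlap for either gene, and these were 2 of 8 genes with a value, where 3.31% of 15380 genes were called (1.24% higher and 2.07% lower).

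The Lefty1 call was lost without degron total replicate 1 (−0.54), 2 (−0.55) or 3 (−0.53) or control total replicate 1 (−0.60), and stood at −0.36 without control replicate 3, the highest library. The Lefty2 call was lost without degron total replicate 1 (−0.59, adjusted p = 0.0534). Nodal (−0.13 ± 0.072), Tdgf1 (−0.02 ± 0.05), Smad7 (−0.21 ± 0.073, adjusted p = 0.130), Id1 (0.35 ± 0.30), Id2 (−0.43 ± 0.24) and Id3 (−0.10 ± 0.22) were not called.

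**Figure D3:**
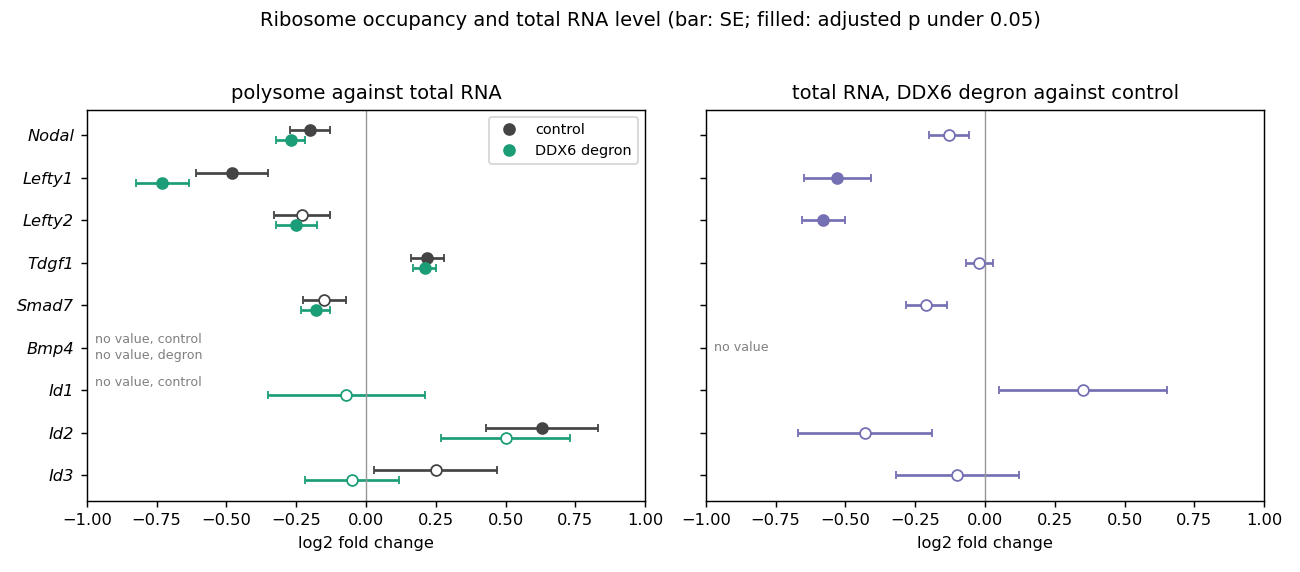
Left, ribosome occupancy (log2 fold change of polysome-bound against total RNA, with its SE) in control and DDX6 degron ES cells; right, total RNA of degron against control cells on the same scale; filled points had an adjusted p under 0.05, and genes under 100 reads have no value. Lefty1 lies furthest left in both conditions at −0.48 and −0.73, Tdgf1 right of 0 at 0.22 and 0.21, and both Lefty genes fall in total RNA.

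The wider pathway was followed through 54 further genes: ligands, their processing enzymes, receptors, Smads, inhibitors, and partners or targets. The genes named for each comparison are the called ones with the largest changes among those with a mean of at least 10 CPM. In naïve P-bodies 15 of 49 tested were enriched and 8 depleted (median log2 fold change −0.02, against −0.06 for all genes), where 22.6% and 15.4% of all genes were. Of 10 receptors 6 were enriched and 1 depleted. In primed P-bodies 2 of 10 receptors were enriched and 2 depleted, and in MEF P-bodies 2 and 5 of 10. Tcf4, a basic helix-loop-helix factor bound by Id proteins, was highest at 2.66 ± 0.13 (edgeR adjusted p = 4.1e-04), with Id4 at 2.42 ± 0.47. The proprotein convertases that cleave Nodal, Pcsk6 (−1.31 ± 0.38) and Furin (−1.21 ± 0.31), were the lowest.

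In primed P-bodies 18 of 50 were enriched and 15 depleted (median −0.09, all genes 0.0), where 26.5% and 24.2% of all genes were. Of 11 ligands 8 were depleted and 1 enriched. In naïve P-bodies 2 of 10 ligands were depleted and 0 enriched, and in MEF P-bodies 5 and 0 of 10. Fst, the activin antagonist follistatin, was enriched (3.59 ± 0.17), as was Smad4, the common partner of receptor-activated Smads (2.35 ± 0.28), while Bmp7 (−0.82 ± 0.12) and Foxh1 (−0.75 ± 0.078) were depleted. In MEF P-bodies 10 of 48 were enriched and 23 depleted (median −0.36, all genes 0.03), where 26.6% and 28.7% of all genes were. Fst (1.62 ± 0.094) and the inhibitor Smad6 (1.12 ± 0.15) were enriched there, and the TGF-β receptor Tgfbr2 (−2.15 ± 0.14) and Smad3 (−1.99 ± 0.18) depleted.

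At day 3, 1 of 49 pathway genes was called in control P-bodies, Furin (−1.5 ± 0.20, edgeR adjusted p = 0.0495), where 0.646% of all genes were. With Nudt21 knockdown 11 of 49 were depleted and 0 enriched by edgeR, 0 also by unadjusted p under 0.05, against 12 called in either direction by DESeq2 (median −0.29, all genes 0.0), where 12.8% and 9.04% of all genes were. The depleted genes were led by Furin (−1.70 ± 0.19) and Smad4 (−1.53 ± 0.16). In Ago2 KO P-bodies 2 of 45 were enriched, Tcf4 (1.55 ± 0.28) and the BMP receptor Bmpr2 (1.39 ± 0.27), and 1 depleted, Pcsk6 (−1.08 ± 0.25), where 5.47% and 1.05% of all genes were.

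Cytoplasmic levels of the pathway also moved between cell types. From naïve to primed cells 19 of 51 rose and 6 fell, where 21.6% and 22.1% of all genes did. Of 10 receptors 7 rose and 1 fell. Skil, a Smad corepressor, rose by 2.46 ± 0.19, while the activin subunit Inhbb (−5.02 ± 0.35) and Pcsk6 (−4.07 ± 0.42) fell. From MEF to day 3, 16 of 50 rose and 27 fell, where 35.5% and 33.7% of all genes did, with Id4 (4.19 ± 0.14) and Bmp6 (3.84 ± 0.095) the highest and the BMP receptor Bmpr1b (−5.90 ± 0.20) and the activin subunit Inhba (−4.76 ± 0.061) the lowest. With Nudt21 knockdown 11 of 50 rose, with Skil (2.09 ± 0.084) and the ubiquitin ligase Smurf1 (1.77 ± 0.069) first, and 20 fell, with Tgfb2 (−1.28 ± 0.12) and Inhba (−1.09 ± 0.095) first, where 24.6% and 25.0% of all genes did.

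Changes in enrichment were called for 12 of 51 pathway genes between naïve and primed cells, 5 higher and 7 lower in primed, a share near the 25.3% of all genes called. Pcsk6 (2.23 ± 0.51) and Smad4 (1.94 ± 0.60) were higher, and Tcf4 (−1.53 ± 0.14) and Skil (−1.28 ± 0.20) lower. Between MEF and day 3 control, 7 of 51 were higher, led by Acvr2a (1.58 ± 0.27) and Tgfbr2 (1.5 ± 0.19), and 6 lower, led by Id4 (−2.59 ± 0.24) and Fst (−1.87 ± 0.17), where 9.59% and 5.13% of all genes were. Knockdown against control gave 0 calls of 50 by edgeR or DESeq2, with 5 unadjusted p-values under 0.05.

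In ribosome occupancy 3 of 49 were higher and 11 lower in control cells, where 18.8% and 24.1% of all genes were. Foxh1 (0.24 ± 0.070) and the corepressor Tgif1 (0.21 ± 0.063) were highest, and Bmpr2 (−0.65 ± 0.10) and Pcsk6 (−0.60 ± 0.063) lowest. In degron cells 8 were higher, led by Bambi (0.46 ± 0.097) and Bmpr1a (0.33 ± 0.048), and 11 lower, led by Pcsk6 (−0.68 ± 0.047) and Acvr1 (−0.59 ± 0.073), where 24.0% and 26.8% of all genes were. The change with DDX6 loss was called for 0 of 49 by edgeR or DESeq2, with 4 unadjusted p-values under 0.05. In total RNA 5 of 48 fell with DDX6 loss and 0 rose by edgeR (9 and 1 by unadjusted p under 0.05, 5 called by DESeq2), where 2.07% and 1.24% of all genes did. Those that fell include Acvr2b (−0.37 ± 0.060) and Tcf4 (−0.34 ± 0.065).

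**Figure D4:**
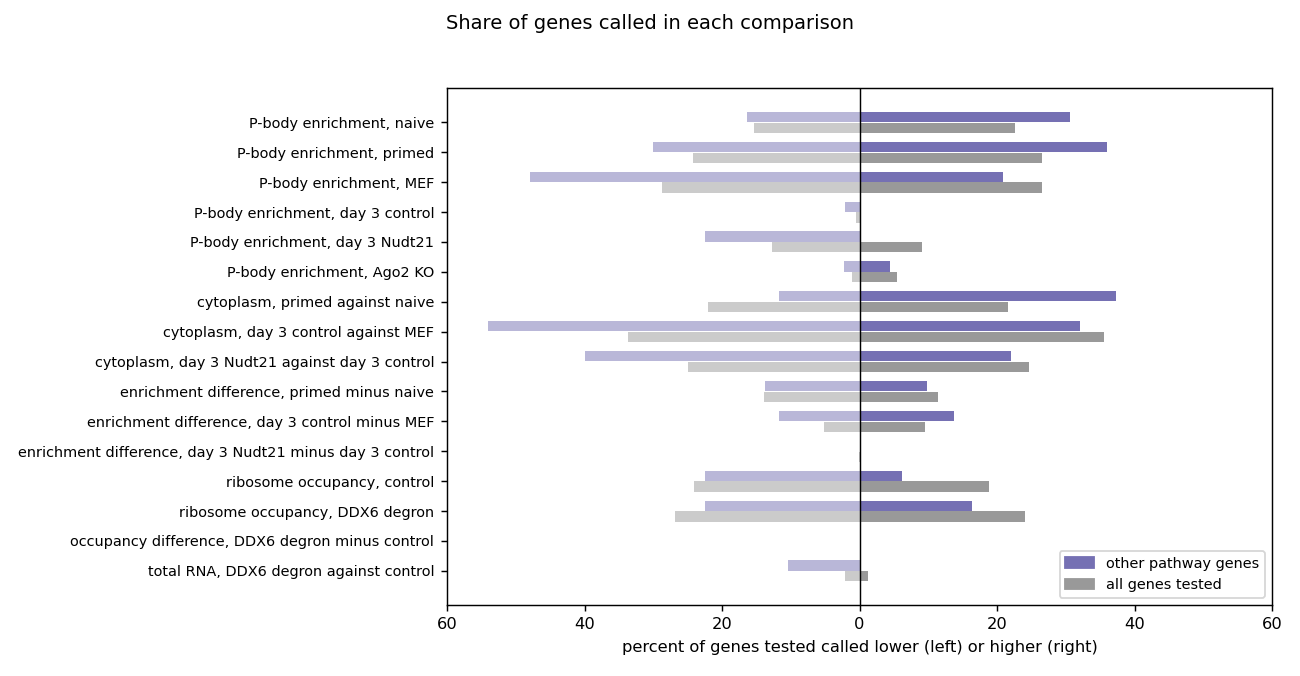
Percent of genes called higher (right) and lower (left) in each of the 16 comparisons, for the 54 other pathway genes (purple) and for all genes tested (grey). The 3 longest purple bars are lower calls, in day 3 against MEF cytoplasm (27 of 50), MEF P-bodies (23 of 48) and knockdown cytoplasm (20 of 50), where the grey bars reach 33.7%, 28.7% and 25.0%.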

How the data were processed

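Smart-seq read pairs of 20 fraction libraries (P-body, cytoplasm) were aligned by the authors to mm10 with HISAT2 and deposited as featureCounts counts on refGene exons; 17.6% to 25.7% of these estimated counts were not whole. For the polysome and total RNA and the Ago2 KO libraries the authors deposited expected counts from salmon. All were rounded. The deposited 10 tables of the authors' DESeq2 comparisons (log2 fold changes and p-values) were not used.

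Groups came from sample titles. Each of 16 comparisons was fitted over its own libraries with edgeR's quasi-likelihood test (version 4.0.16, R 4.3.3), two-sided, after TMM scaling, keeping genes whose reads in the fit summed to 10 or more. A gene was called at a Benjamini-Hochberg adjusted p under 0.05 over all genes tested. Interactions tested differences in enrichment or occupancy. SEs are the fold change divided by the root of the F statistic. Values of the 9 genes are given where the fit held at least 100 reads of the gene, no group held 0 and, for a difference, each pair of fractions held at least 10. The 9 genes and all lists were chosen with earlier results of these data known, and this minimum of 100 after their values were seen. Named pathway genes are the 2 called with the largest change in each direction at a mean of at least 10 CPM, of which 1 is not reported here; similar genes are the 3 with the highest correlation. Comparisons that share libraries (such as the naïve cytoplasm) are not independent. The study states that its large-scale sequencing assays had at least 2 biological replicates. What set the replicates of each group apart, such as separate cultures, is not described, and p-values measure only the spread between these libraries.

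Positions, transcript lengths and 3′ UTRs are those of GENCODE M21 (GRCm38, the assembly of mm10); microRNAs are from RefSeq (GRCm38.p6). Scripts were tested on simulated counts. Alternatives were DESeq2 (version 1.42.0), its size factors, filterByExpr, no filter on low counts, a block for replicate number, 1 fit of all groups, and leaving out each library.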

Additional observations from a re-analysis of the deposited data

Results flagged for a closer look

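A test of the difference itself, as an interaction over 4 groups of 2 libraries, set 9 results apart, each a P-body enrichment that changed between cell types. From naïve to primed cells the difference of log2 fold changes was −3.47 for Lefty1, −1.60 for Lefty2, −1.33 for Nodal, 1.72 for Id1 and 1.86 for Id2. From MEF to day 3 control cells it was −3.19 for Id1, −2.59 for Id2, −2.26 for Id3 and 1.4 for Bmp4. Id1 and Id2 were thus called in both, in opposite directions; naïve Id1 rests on 37 reads.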

How the results depend on the processing

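Across the settings other than left-out libraries, 310 of 317 values of called results kept their direction and their call, 7 lost the call and 0 changed sign; with 1 library left out, 219 of 266 kept it, 47 lost it and 0 changed sign. Such fits assume that a library left alone in its group varies like the others. All groups in 1 fit could not be run for Ago2 KO, whose table holds only those 2 groups.

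The number of the 9 genes called moved by over 1.5 times as follows. In naïve P-bodies (2 genes) it was 4 with the replicate block, 5 with all groups in 1 fit and 1 to 6 without 1 library. In day 3 control P-bodies (0) it was 1 with DESeq2 or no filter, 2 with all groups and 0 to 6 without 1 library. In Nudt21 knockdown P-bodies (1) it was 2 with DESeq2, filterByExpr, no filter or the block, and 0 to 3. In Ago2 KO P-bodies (0) it was 1 with no filter or the block (Bmp4), and 0 to 2. Total RNA (2) gave 1 with the block and 0 to 2. Nudt21 knockdown cytoplasm (5) gave 3 with all groups. Leaving out 1 library also gave 3 to 6 in MEF P-bodies (5), 3 to 9 in primed against naïve cytoplasm (5), 2 to 7 for the enrichment difference of primed and naïve cells (5), 0 to 2 for that of knockdown and control (0), and 2 to 4 for control occupancy (4).

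The replicate numbers were not read as pairs: deviations of same-numbered libraries correlated at −0.058 in naïve, 0.083 in primed, −0.004 in MEF, 0.171 in day 3 control, 0.199 in knockdown and 0.542 in Ago2 KO fractions, and no label says what a number marks. With the number as a block, Lefty2 (0.93) and Tdgf1 (−1.40) in naïve P-bodies were called, as were Id2 in knockdown P-bodies (0.29), Bmp4 in Ago2 KO P-bodies (1.2) and Tdgf1 in primed against naïve cytoplasm (1.09), the calls of Bmp4 in primed P-bodies (adjusted p = 0.0531) and Lefty1 in total RNA (0.0655) were lost, no other call of the 9 genes changed, and calls over all genes moved from 102 to 802 in day 3 control P-bodies, from 1095 to 4178 in Ago2 KO P-bodies and from 509 to 82 in total RNA. With crossed numbers, chosen after seeing the data, primed against naïve cytoplasm gave 7188 calls over all genes, against 7056.

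Over all genes, calls moved by over 1.5 times elsewhere: day 3 control P-bodies gave 2100 with DESeq2, 202 with filterByExpr, 1940 with no filter and 3308 with all groups; primed P-bodies 5128 with all groups (8209), knockdown P-bodies 2100 (3501), knockdown cytoplasm 4877 (7934) and total RNA 1138 (509). Ago2 KO P-bodies gave 1731 with DESeq2, 716 with its size factors and 2643 with no filter; the difference of knockdown and control gave 26 with DESeq2 and 62 with no filter (2), and the occupancy difference 4, 16 and 6 with DESeq2, no filter and the block (0). The other pathway genes called changed to 17 in primed P-bodies and 19 in knockdown cytoplasm with all groups, to 6 to 8 in day 3 control P-bodies with DESeq2, no filter, the block or all groups, to 7 and 16 in Ago2 KO with no filter and the block, to 1 in the difference of knockdown and control with no filter, and to 0 in total RNA with the block.

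Direction changed only in values that were not called. Nodal in day 3 control P-bodies was 0.05 with all groups and −2.31 to 0.81 without 1 library. Its difference between knockdown and control was 0.0033 with DESeq2, 0.38 with the block and −0.82 to 2.32 without 1 library. The occupancy difference without a filter was 5.9e-05 for Lefty2 and 0.01 for Tdgf1. Without 1 library, values ran from −0.60 to 0.07 for Id2 and −1.40 to 0.20 for Id3 in naïve P-bodies, and −0.93 to 0.67 for Id3 in primed against naïve cytoplasm. In knockdown P-bodies they ran from −0.05 to 0.70 for Lefty1 and −0.21 to 0.13 for Nodal. The primed and naïve enrichment difference of Tdgf1 was −1.21 to 0.60. For knockdown and control the differences were −0.21 to 0.13 for Id2, −0.11 to 0.64 for Bmp4 and −0.64 to 0.12 for Lefty1. Degron occupancy was −0.12 to 0.01 for Id3 and −0.23 to 0.23 for Id1. The occupancy difference was −0.40 to 1.03 for Bmp4, −0.04 to 0.0041 for Tdgf1, −0.15 to 0.05 for Lefty2 and −0.10 to 0.03 for Smad7. Total RNA was −0.04 to 0.0039 for Tdgf1 and −0.33 to 0.08 for Id3. The causes were not tested.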
